A study of Mus musculus with 12 samples.

Results

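The VEGF and angiopoietin signalling genes are the 10 genes that encode the ligands *Vegfa*, *Vegfb*, *Vegfc* and *Pgf*, their receptors *Flt1*, *Kdr* and *Flt4*, the ligands *Angpt1* and *Angpt2*, and their receptor *Tek*. They were taken by name from the 54658 gene names in the deposited table, with earlier results of these data known, and all 10 were among the 13541 genes left for testing by an expression filter, a depth-scaled count (CPM) above 1 in 6 or more of the libraries. The table holds RNA-seq read counts for the left atrium (LA) of 12 mice on a mixed background. In 6 iNICD mice, *αMHC-rtTA* and *tetO_NICD* together switched on the intracellular domain of NOTCH1 in cardiomyocytes, and 6 littermates with *αMHC-rtTA* but no *tetO_NICD* were the controls. Doxycycline chow began at 2 to 3 months of age in either group and lasted 3 weeks, with no washout, and each LA gave 1 library. The controls were 4 females and 2 males, the iNICD mice 3 of each sex. Because the transgene was driven in cardiomyocytes and whole LA tissue was sequenced, the counts mix cardiomyocytes with every other cell type of the wall.

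VEGF-A, the product of *Vegfa*, is released by cardiomyocytes and other cells and acts on endothelial cells through the kinase receptors VEGFR1 and VEGFR2, encoded by *Flt1* and *Kdr*. Low oxygen is a known inducer of *Vegfa* transcription through hypoxia-inducible factors. Angiopoietin 1 activates the endothelial receptor TIE2 (*Tek*) and keeps vessels quiescent, whereas angiopoietin 2, stored in endothelial cells, can antagonize it.

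Libraries held 21432632 to 27182038 counts, and their totals overlapped between genotypes (exact permutation over libraries, two-sided, p = 0.606). *Notch1*, whose counts include the transgene, had 108 to 131 CPM in controls and 2975 to 4077 CPM in iNICD libraries after TMM normalization, the scale used for all levels here unless per kb is stated. One male control, replicate 5, lay far from the others: in this library 13.2% of tested genes were 2-fold or more away from the average of the remaining controls, and in each of those 5 the same measure gave 1.38% to 3.12%. Its counts lay above all other controls for 32.6% of tested genes and below all of them for 35.8%. It was singled out with its *Vegfa* and *Angpt1* values already known to lie far from those of the other controls. The members were compared with all 12 libraries and with 11, control replicate 5 left out; other genes are given with 12 where no set is named. The results of these 2 genes with 11 libraries are not independent of that choice. Across all tested genes, the quasi-likelihood test of edgeR, with p-values adjusted by the Benjamini-Hochberg method, called 4.12% of genes changed with 12 libraries (2.78% higher and 1.34% lower in iNICD) and 5.9% with 11 (3.66% higher and 2.25% lower).

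*Vegfa* (chr17:46016993-46032369, minus strand, GRCm38) was the member that separated the groups. Its level was 212, 251, 220.2, 215, 388 and 208 normalized CPM in control replicates 1 to 6 and 166, 170.3, 168, 187, 179.6 and 166 in iNICD replicates 1 to 6. All 6 iNICD libraries lay below all 6 controls, an arrangement found in 1.25% of tested genes with 12 libraries (3.83% for either direction) and in 2.12% with 11. Control replicate 5 stood 1.75-fold above the average of the remaining controls. With that library left out, the control mean was 221 ± 17.0 and the iNICD mean 173 ± 8.38 normalized CPM (SD, n = 5 and 6), 21.9% lower in the fit, or -0.36 on the log2 scale (standard error 0.058, edgeR adjusted p = 0.00322). With all 12 libraries the control mean was 249 ± 69.6 and the fold change was larger, -0.53, but its standard error was 0.14 and the edgeR adjusted p 0.0541. Removing 1 high control, chosen in part for its *Vegfa* value, thus reduced the estimated difference and carried *Vegfa* past the threshold of 0.05. Among the tests on 12 libraries, DESeq2 called it lower (adjusted p = 0.00842) and edgeR's fit with a sex term did so too (adjusted p = 0.0309).

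**Figure D1:**
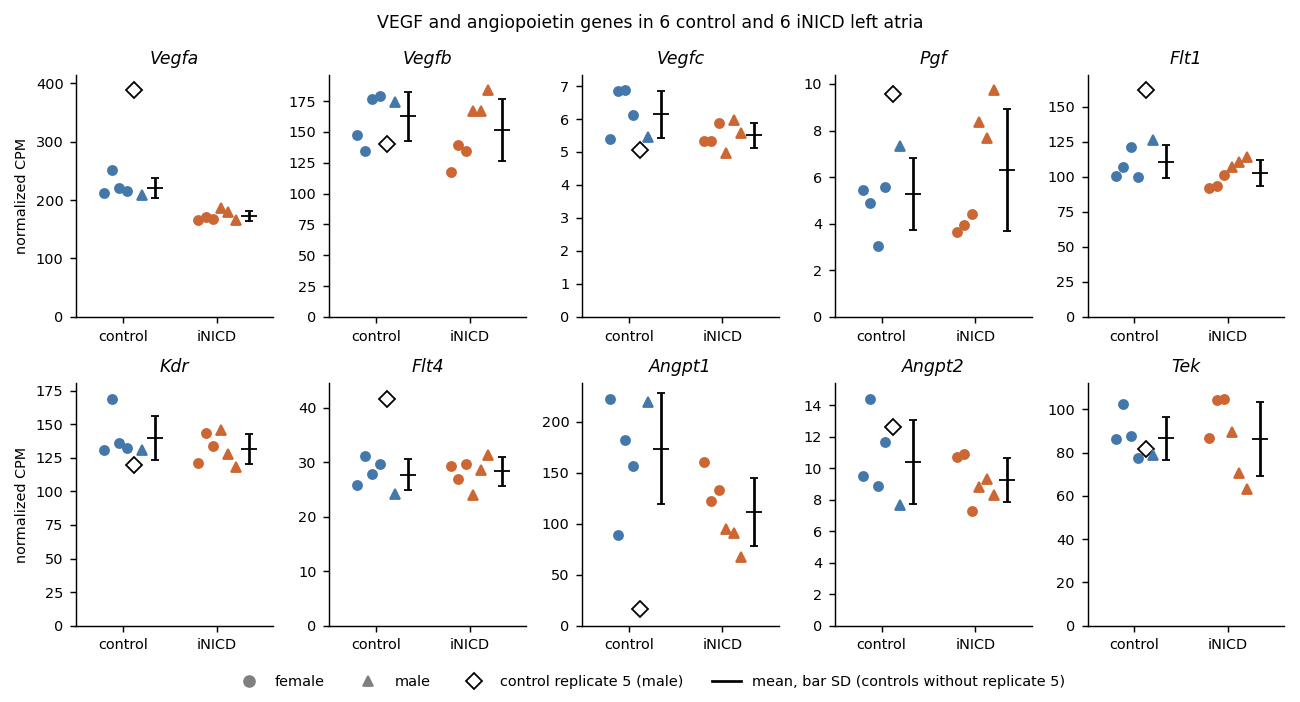
Normalized CPM (y axis, from 0) of the 10 genes in each control (blue) and iNICD (orange) library, circles for female and triangles for male mice; the open diamond is control replicate 5, and the bar is the mean with SD, control replicate 5 left out. *Vegfa* is the gene in which all 6 iNICD points, 166 to 187, lie below all controls, and *Angpt1* is the gene in which the diamond, at 16.4, lies far under every other library.

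The 250 bases before the annotated start of *Vegfa* (chr17:46032378-46032627, minus strand, GRCm38.p6, from RefSeq) are shown because *Vegfa* was the member called lower without control replicate 5 in mice with an active NOTCH1 domain. They are the first of a pair of windows that RefSeq gives for *Vegfa*. Capitals mark the core bound by RBPJ, the DNA-binding partner of that domain, searched as TGGGAA on either strand.
Vegfa: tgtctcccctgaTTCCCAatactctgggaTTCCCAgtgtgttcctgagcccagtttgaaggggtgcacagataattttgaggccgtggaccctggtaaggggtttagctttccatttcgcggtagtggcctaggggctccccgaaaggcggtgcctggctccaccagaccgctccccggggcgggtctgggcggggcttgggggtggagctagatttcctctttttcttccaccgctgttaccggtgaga
The window held 2 matches, at bases 13 and 30 from its 5′ end and both on the opposite strand. Such a match was present in 21.6% of the 32851 windows of this length in the RefSeq table. The short cores of the hypoxia-response element, searched as ACGTG and GCGTG on both strands, were not in this window. They were present in 16.6% and 28.2% of all windows. The second window of *Vegfa* (chr17:46025164-46025413), which lies within the span of the gene and is not printed, held 1 of each, at bases 40 and 33, and 2 more RBPJ matches, at bases 164 and 239. A match is a string of letters, not a measured binding site. Sequence outside these windows was not searched, so an absent core speaks only of the 250 bases searched.

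The other VEGF ligands did not pass the test in either comparison. *Vegfb*, which binds VEGFR1 and is abundant in heart muscle, ranged from 135 to 179 normalized CPM in controls (median 161) and from 117 to 184 in iNICD libraries (median 153), and the groups overlapped. Its log2 fold change was -0.07 (95% interval -0.32 to 0.18, edgeR adjusted p = 0.803) and -0.10 without control replicate 5 (adjusted p = 0.713). *Vegfc*, the main ligand of the lymphatic receptor VEGFR3, was scarce. It ranged from 5.05 to 6.87 in controls (median 5.79) and from 4.96 to 5.98 in iNICD libraries (median 5.46), with a log2 fold change of -0.11 (95% interval -0.35 to 0.12, edgeR adjusted p = 0.629) and of -0.16 without control replicate 5 (adjusted p = 0.465). *Pgf*, a ligand of VEGFR1 alone, spread more than any VEGF ligand: 3.06 to 9.55 in controls (median 5.52) and 3.66 to 9.72 in iNICD libraries (median 6.05). The interval of its log2 fold change ran from -0.58 to 0.74 around 0.08 (edgeR adjusted p = 0.923), and 8 of the 10 genes had a narrower one. Without control replicate 5 the estimate for *Pgf* was 0.26 (95% interval -0.38 to 0.90, adjusted p = 0.708).

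The *Pgf* values within each genotype followed the sex of the mouse. All 5 male libraries, at 7.36 to 9.72 normalized CPM, lay above all 7 female libraries, at 3.06 to 5.57, an arrangement found in 0.827% of tested genes with 12 libraries and 1.85% with 11. With genotype in the model, the male minus female log2 difference was 0.98 (standard error 0.16, edgeR adjusted p = 0.0297). Without control replicate 5 it was 0.94 (standard error 0.18), and the edgeR adjusted p of 0.0584 missed the threshold. This comparison of the sexes was made after the *Pgf* values had been seen, and it called 0.288% of tested genes with 12 libraries and 0.325% with 11. *Pgf* was the only member called between the sexes with 12 libraries and no member was called with 11. The next lowest adjusted p with 12 libraries was 0.127, for *Flt1*. The sex by genotype interaction was called for 0 tested genes by edgeR (lowest adjusted p = 0.916, 501 genes with an unadjusted p under 0.05), and the 10 members had adjusted p-values of 0.916 to 0.998.

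**Figure D2:**
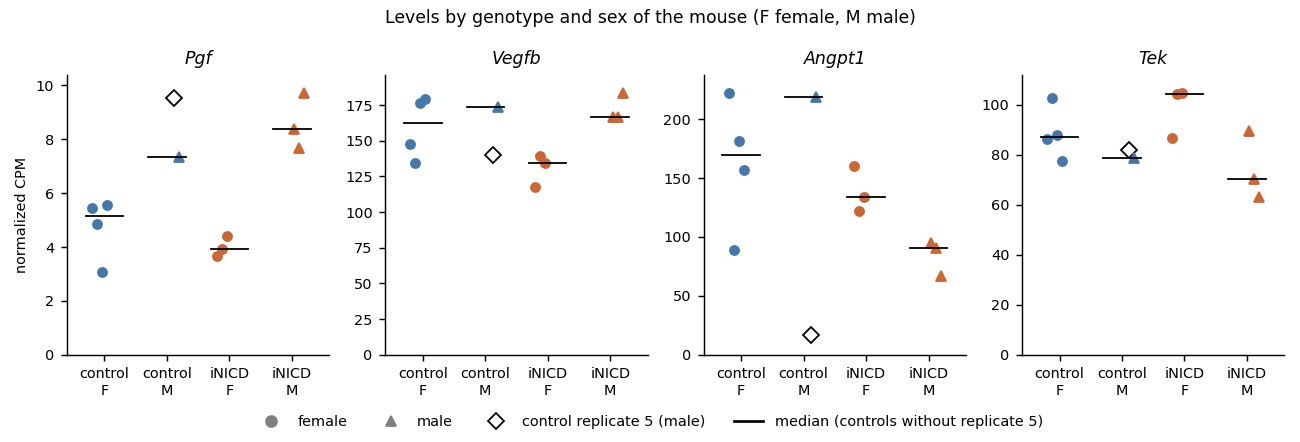
Normalized CPM (y axis, from 0) of *Pgf*, *Vegfb*, *Angpt1* and *Tek* by genotype and sex; circles are female, triangles male, the open diamond is control replicate 5 and the line is the median, control replicate 5 left out. *Pgf* lies higher in males (7.36 to 9.72) than in females (3.06 to 5.57) of either genotype, and the other 3 genes drawn were not called between the sexes.

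The 3 VEGF receptors overlapped between the groups and did not pass the test with 12 libraries or 11. *Flt1*, whose product binds VEGF-A tightly and in its soluble form acts as a decoy, ranged from 99.8 to 162 normalized CPM in controls (median 114) and from 91.7 to 114 in iNICD libraries (median 104). Control replicate 5 held the highest value, 1.46 times the average of the remaining controls. The log2 fold change of *Flt1* was -0.21 (95% interval -0.46 to 0.03, edgeR adjusted p = 0.361) and moved to -0.11 without that library (adjusted p = 0.529). *Kdr*, which encodes the main signalling receptor for VEGF-A, ranged from 119 to 169 in controls (median 131) and from 118 to 146 in iNICD libraries (median 131). Its fold change was -0.05 on the log2 scale (95% interval -0.24 to 0.13, edgeR adjusted p = 0.795) and -0.09 without control replicate 5 (95% interval -0.27 to 0.09, adjusted p = 0.638), so a decrease of *Kdr* as large as the -0.36 of *Vegfa* lay outside either interval. The ratio of *Vegfa* to *Kdr* per length was 3.13 to 3.43 in the 5 other controls and 2.51 to 2.97 in iNICD libraries, without overlap, and 6.84 in control replicate 5. *Vegfa* is part of this ratio and separated the groups by itself, so the ratio is no further support. The ratios of *Vegfa* to the other VEGF ligands overlapped between the groups: 0.449 to 0.697 in the 5 other controls and 0.339 to 0.531 in iNICD libraries against *Vegfb*, 18.3 to 22.5 and 16.3 to 21.5 against *Vegfc*, and 19.2 to 48.7 and 11.6 to 30.8 against *Pgf*. *Flt4*, the receptor of lymphatic endothelium, ranged from 24.1 to 41.6 in controls (median 28.8) and from 24.0 to 31.3 in iNICD libraries (median 29.0). Its log2 fold change was -0.09 (edgeR adjusted p = 0.754) and 0.03 without control replicate 5, where its interval reached from -0.15 to 0.21.

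*Angpt1* (chr15:42424723-42676977, minus strand, GRCm38) had the most uneven values. In control replicates 1 to 6 it stood at 222, 88.5, 182, 157, 16.4 and 219 normalized CPM, and in iNICD replicates 1 to 6 at 160.2, 122, 134, 95.05, 90.5 and 66.9. Control replicate 5 was the lowest of all 12 libraries, 10.6-fold under the average of the remaining controls, and rested on 351 counts. Only 4 of the 13541 tested genes, *Angpt1* among them, lay as far below the other controls in that library, a description of a value that had singled the library out. The groups overlapped with and without it, since control replicate 2, at 88.5, was below 5 of the 6 iNICD libraries. With 12 libraries the fitted log2 difference was -0.41 (standard error 0.45, edgeR adjusted p = 0.682). Over 25 alternative settings and subsets it ran from -0.64 to -0.14, and *Angpt1* was called in none of them. With 11 it was -0.64, or 35.9% lower, and the 95% interval ran from -1.19 to -0.09 (standard error 0.25). Its edgeR adjusted p of 0.178 did not pass. Leaving out control replicate 2 as well gave -0.81 (adjusted p = 0.0402), so 1 further library decided that call.

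*Angpt2* and *Tek* did not pass the test with 12 libraries or 11. *Angpt2* ranged from 7.64 to 14.4 normalized CPM in controls (median 10.6) and from 7.30 to 10.9 in iNICD libraries (median 9.07), with a log2 fold change of -0.22 (95% interval -0.57 to 0.12, edgeR adjusted p = 0.496) and -0.17 without control replicate 5 (adjusted p = 0.633). The gene lies inside *Mcph1* on the other strand, which had 179 to 308 counts per library against 165 to 390 for *Angpt2*; whether strand was used in counting was not given in the sources used here, so reads of the pair may not be told apart. *Angpt1* likewise shares its locus with the antisense gene *Gm17473*, at 8 to 80 counts. *Tek* ranged from 77.5 to 103 in controls (median 84.0) and from 63.2 to 105 in iNICD libraries (median 87.9). The fitted log2 difference of *Tek* was 0.01 (95% interval -0.26 to 0.28, edgeR adjusted p = 0.977) and 0.00 without control replicate 5 (95% interval -0.29 to 0.29, adjusted p = 0.996). The ratio of *Angpt1* to *Angpt2* per length, which contrasts the agonist of TIE2 with its context-dependent antagonist, was 4.36 to 20.3 in the 5 other controls, 5.70 to 13.0 in iNICD libraries and 0.92 in control replicate 5.

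**Figure D3:**
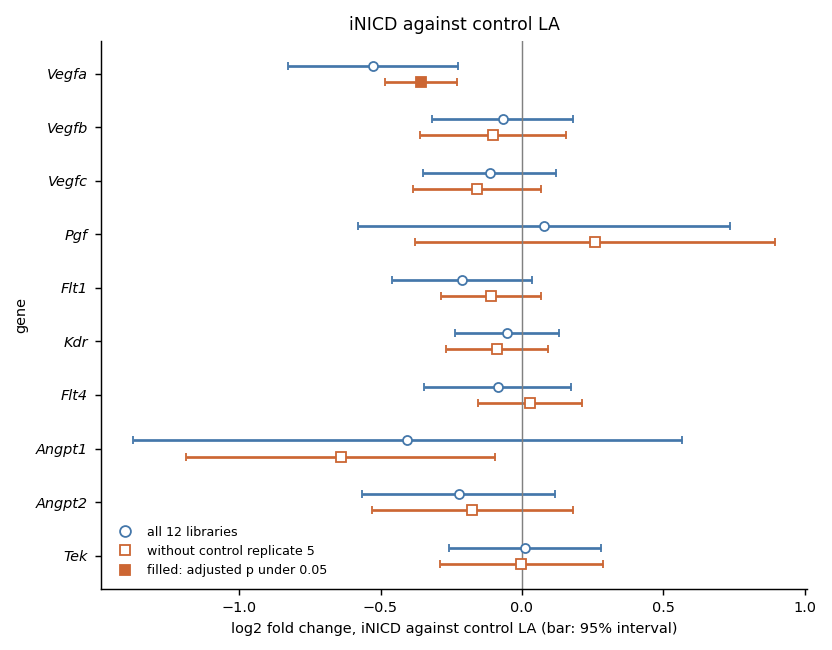
Log2 fold change of iNICD against control LA (x axis) with its 95% interval for the 10 genes (y axis), blue circles for all 12 libraries and orange squares for the 11 without control replicate 5; a filled symbol has an edgeR adjusted p under 0.05. *Vegfa* without control replicate 5, at -0.36, is the filled one, and the *Angpt1* interval narrows when that library is left out.

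In all, 0 of the 10 genes were called with 12 libraries by edgeR, beside 4.12% of all tested genes called in either direction, although *Vegfa* had an unadjusted p of 0.00236 and DESeq2 called that 1 gene, beside 7.84% of the 13514 genes to which it gave an adjusted p. With 11 libraries 1 of 10 was called, lower, beside 5.9% of all tested genes called in either direction and 2.25% called lower. The median log2 fold change of the 10 was -0.10 with 12 libraries and -0.11 with 11, and 8 of 10 were below 0 in each. Over all 13541 tested genes the medians were -0.01 and 0.00, and 6951 and 6787 genes were below 0. In control replicate 5, 4 members lay above all other controls (*Vegfa*, *Pgf*, *Flt1* and *Flt4*) and 3 below (*Vegfc*, *Kdr* and *Angpt1*), 40% and 30% of the members beside 32.6% and 35.8% of all tested genes. *Vegfa* and *Angpt1* are in these counts, although their values had singled out the library.

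The levels per length spanned a wide range. Among the 5 other controls *Vegfb* had the highest mean, 101 ± 12.5 normalized CPM per kb (SD), followed by *Vegfa* at 51.6 ± 3.96 and *Angpt1* at 33.4 ± 10.5. *Tek* (18.4 ± 2.13), *Kdr* (15.5 ± 1.81) and *Flt1* (8.21 ± 0.892) came next. The ligands most abundant per length were thus *Vegfb* and *Vegfa*, whereas *Pgf*, also a ligand of VEGFR1, was the lowest of the 10 genes. *Tek* and *Kdr* stood above the other receptors. At the low end were *Flt4* (3.37 ± 0.349), *Angpt2* (2.82 ± 0.721), *Vegfc* (2.51 ± 0.295) and *Pgf* (1.81 ± 0.531). Neighbours whose ranges overlapped in these controls were *Angpt1* and *Tek*, *Tek* and *Kdr*, *Flt4* and *Angpt2*, *Angpt2* and *Vegfc*, and *Vegfc* and *Pgf*. The order of the means was the same in iNICD libraries, where *Vegfa* was at 40.3 ± 1.96 and *Angpt1* at 21.4 ± 6.47 per kb.

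**Figure D4:**
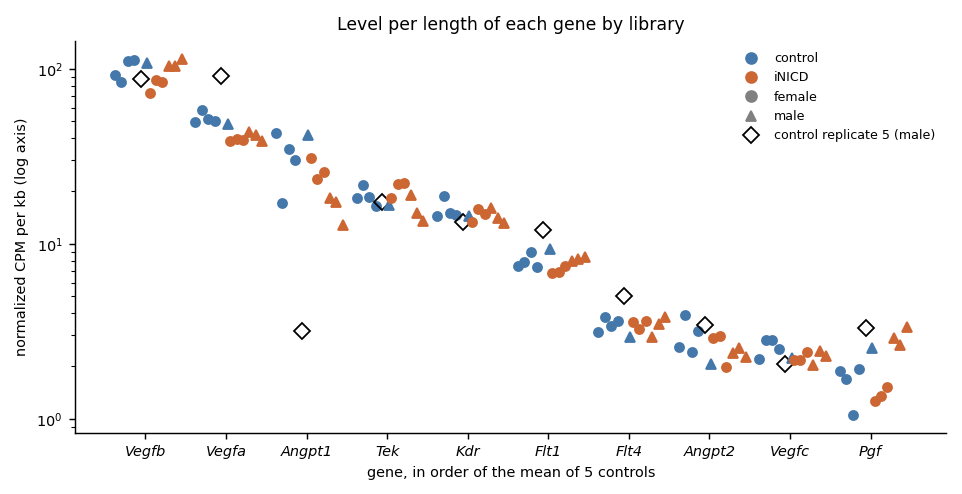
Normalized CPM per kb (y axis, log scale) of each gene (x axis, in order of the mean of 5 controls) in control (blue) and iNICD (orange) libraries; circles are female, triangles male and the open diamond is control replicate 5. *Vegfb* stands highest, with a mean of 101 per kb in the 5 controls, and *Pgf* lowest at 1.81.

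Most of these receptors are endothelial genes, so the level of endothelial markers was set beside them. In bulk tissue fewer cells of a type and less RNA per cell cannot be told apart. The summed level of 14 endothelial markers, all detected, was 1451 to 1654 normalized CPM in the 5 other controls, 2147 in control replicate 5 and 1328 to 1673 in iNICD libraries. The log2 difference of iNICD from control was -0.10 (exact permutation over libraries, two-sided, p = 0.422) and -0.01 without control replicate 5 (exact permutation p = 0.838), where the smallest p possible was 0.00216. Of the 14 markers 1 was called, *Esam*, an endothelial junction protein, with a log2 fold change of 1.46 (edgeR adjusted p = 5.83e-06). *Esam* is part of the sum, and the sum without it was not computed. Of the 14, 11 had a fold change below 0 with 12 libraries and 10 with 11, with medians of -0.16 and -0.05. In control replicate 5, 11 of the 14 markers were above all other controls, in the library where *Flt1* and *Flt4* were also highest and *Kdr* was below the other controls. The summed endothelial level includes neither *Flt1* nor *Kdr*. Relative to that sum, *Flt1* was 7.53% in control replicate 5 and 6.46% to 8.57% in the other controls. *Kdr* was 5.57% of it in control replicate 5 and 8.68% to 10.2% in the other controls. The part of endothelial content in these values was not tested.

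Other cell types were followed by their markers. The summed pericyte level of 6 markers was 425 to 571 normalized CPM in the 5 other controls, 579 in control replicate 5 and 601 to 764 in iNICD libraries, all of which were higher than all controls. That separation rested on *Cspg4*, the 1 marker of the list that was called (log2 fold change 1.89, edgeR adjusted p = 2.87e-05), at a mean of 46.5 in controls and 172 in iNICD libraries. The other 5 markers, 2 of them with a fold change below 0, summed to 387 to 532 in the 5 other controls, 509.9 in control replicate 5 and 454 to 573 in iNICD libraries, with overlap. The summed level of 4 lymphatic markers overlapped (104 to 186 in controls, 127 to 159 in iNICD libraries), and none of them was called. Of 6 general cardiomyocyte markers, summing to 59462 to 74540 in controls and 52808 to 61744 in iNICD libraries, 1 was called lower, *Tnnt2* (log2 fold change -0.44, edgeR adjusted p = 0.0153). All 4 atrial markers were lower in iNICD libraries, among them the peptide gene *Nppa* (-2.33 on the log2 scale, adjusted p = 0.000339) and the light chain gene *Myl4* (-0.75, adjusted p = 0.00032), and their sum was 34235 to 44024 against 9269 to 16601. The call of *Myl7*, another of the 4, was lost (adjusted p up to 0.0846) without any 1 library other than control replicates 2 and 5 and iNICD replicates 5 and 6. These values moved in the same libraries as *Vegfa*, and their part in its change was not tested. Ventricular markers summed to at most 4.51, and *Irx4* was at 0 in all 12 libraries. Smooth muscle markers summed to 393 in control replicate 5 against 65.2 to 247 in the other controls. None of the 4 smooth muscle, 6 fibroblast, 4 epicardial, 5 tested leukocyte and 1 tested adipocyte genes was called between the genotypes with 12 libraries or 11. The 3 erythroid genes, globin genes with near-identical copies that can share reads, summed to 50.8 to 222 in the 5 other controls, 93.2 in control replicate 5 and 23.8 to 125 in iNICD libraries, with means of 143 and 57.7 for the groups and overlap. Their log2 fold changes were -1.33 to -1.30 with 12 libraries. Of these *Hbb-bt* was called lower with 11 libraries (log2 fold change -1.42, edgeR adjusted p = 0.0479; up to 0.129 with a further library left out) and none with 12.

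Genes that sense oxygen and control *Vegfa* were examined as a list of 11, all tested, of which 2 were called lower and none higher with either set of libraries. Both encode prolyl hydroxylases, which mark hypoxia-inducible factors for degradation when oxygen is present. *Egln1* ranged from 232 to 290.1 normalized CPM in controls (median 271) and from 169 to 223 in iNICD libraries (median 205), with no overlap. It fell by 0.40 on the log2 scale (standard error 0.076, edgeR adjusted p = 0.00914), with or without control replicate 5 (adjusted p = 0.00986 without). *Egln3*, itself a target of these factors, ranged from 14.2 to 31.2 in controls (median 18.9) and from 6.74 to 14.6 in iNICD libraries (median 10.5). The highest iNICD library overlapped the lowest control. It fell by 0.97 on the log2 scale (standard error 0.20, edgeR adjusted p = 0.0174), or by 0.82 without control replicate 5 (adjusted p = 0.0174), which held its highest value. *Hif1a*, *Epas1* and the other 7 were not called.

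Of 16 hypoxia-responsive genes 15 were tested, with 1 called lower in 12 libraries and 2 in 11. *Ldha*, the lactate dehydrogenase of glycolysis, ranged from 405 to 557 normalized CPM in controls (median 441) and from 345 to 379 in iNICD libraries (median 354), without overlap. Its log2 fold change was -0.36 (standard error 0.077, edgeR adjusted p = 0.019) and -0.30 with 11 libraries (adjusted p = 0.00885). *Pdk1*, which restrains entry of pyruvate into mitochondria, ranged from 175 to 239 in controls (median 208) and from 144 to 185 in iNICD libraries (median 163), with overlap. With 11 libraries it was called (log2 fold change -0.35, edgeR adjusted p = 0.0185; up to 0.0505, and so lost, without control replicate 1 or 4 as well) and not with 12 (-0.31, adjusted p = 0.0585). *Ankrd37*, another known target of hypoxia-inducible factors, is named after its values were seen because it had the largest fold change of the list and an adjusted p nearer the threshold than *Pdk1* with 12 libraries, and went the other way. It was scarce, at 1.36 to 2.69 normalized CPM in controls (median 2.21) and 2.44 to 4.47 in iNICD libraries (median 3.73), 5 of which lay above all controls. Its log2 fold change of 0.78 did not pass (edgeR adjusted p = 0.0563), nor did the 0.68 with 11 libraries (adjusted p = 0.064). Of the 15 genes, 9 had a fold change below 0 with 12 libraries and 8 with 11, with medians of -0.09 and -0.03.

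The 250 bases before the starts of *Egln3* (chr12:54203875-54204124, minus strand) and *Ldha* (chr7:46845554-46845803, plus strand; both GRCm38.p6, RefSeq) are shown beside that of *Vegfa* because these genes of oxygen response were lower in the same libraries. Capitals mark the hypoxia-response core ACGTG on either strand, present in 16.6% of the 32851 RefSeq windows. The windows of *Egln1* and *Pdk1*, also called lower with 11 libraries, are not printed, and their matches are given below.
Egln3: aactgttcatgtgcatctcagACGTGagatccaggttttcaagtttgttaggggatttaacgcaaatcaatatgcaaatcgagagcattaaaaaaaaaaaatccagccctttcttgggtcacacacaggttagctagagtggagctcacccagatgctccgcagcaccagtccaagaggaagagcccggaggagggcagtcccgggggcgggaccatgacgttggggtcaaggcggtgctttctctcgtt
Ldha: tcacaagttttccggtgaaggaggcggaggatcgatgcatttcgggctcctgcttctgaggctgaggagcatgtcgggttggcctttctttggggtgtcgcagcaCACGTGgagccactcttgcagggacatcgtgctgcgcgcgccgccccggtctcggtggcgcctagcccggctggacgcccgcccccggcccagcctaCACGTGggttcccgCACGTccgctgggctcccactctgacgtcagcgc
*Egln3* held 1 match, at base 22. *Ldha* held 3 places with the core, at bases 106, 203 and 217, and the first and second read as CACGTG, which carries the core on both strands at once. The *Vegfa* window printed above held none and its second window 1. Of the other genes called in these lists with 11 libraries, *Egln1* had 1 match to ACGTG, at base 183 of its window, and *Pdk1* had none in either of its windows. The second window of *Ldha* held no ACGTG. The other core, GCGTG, was found once each in the *Egln1* window (base 125), the first window of *Pdk1* (base 173) and the second of *Ldha* (base 192), and not in the windows printed here. RefSeq windows were at hand for 8 of the 10 VEGF and angiopoietin genes. Besides *Vegfa*, the RBPJ core TGGGAA was found among them only in *Kdr* (base 123), which was not called with 12 libraries or 11. GCGTG was also found in windows of *Vegfb*, *Pgf*, *Flt1* and *Kdr*. No window was at hand for *Angpt1* and *Angpt2*.

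The remaining lists held few called genes. Among 30 tested genes of signal transduction below VEGFR2 and TIE2, 1 was called, *Pik3ca*, the catalytic subunit of a phosphoinositide kinase. It was at 79.4 to 88.6 normalized CPM in controls (median 83.7) and 89.97 to 105 in iNICD libraries (median 97.4), without overlap, and rose by 0.22 on the log2 scale (edgeR adjusted p = 0.0337). That call was lost (adjusted p up to 0.0848) when any 1 library other than control replicate 5 or 6 or iNICD replicate 6 was left out. With 11 libraries *Pik3ca* was called (adjusted p = 0.0311) and stayed so in 5 of the 11 fits that left out 1 more (adjusted p up to 0.092). Of 7 tested other growth factors of angiogenesis 1 was called, *Fgf2*, a mitogen of endothelial cells and fibroblasts, at 17.9 to 22.2 in controls (median 21.6) and 22.1 to 37.3 in iNICD libraries (median 26.97), 5 of which lay above all controls. Its log2 fold change was 0.43 (edgeR adjusted p = 0.0485). That call too was lost (adjusted p up to 0.109) without any 1 library other than control replicate 5 or iNICD replicate 6. With 11 libraries *Fgf2* was called (adjusted p = 0.0487) and stayed so in 2 of the 11 fits that left out 1 more (adjusted p up to 0.102). Of 8 inhibitors of angiogenesis 1 was called, *Adamts1*, a secreted protease that can bind VEGF-A. It ranged from 76.9 to 263 in controls (median 91.2) and from 33.9 to 69.0 in iNICD libraries (median 49.5), without overlap. Control replicate 5 held the value of 263, and without it the log2 fold change of *Adamts1* went from -1.24 (edgeR adjusted p = 0.037) to -0.85 (adjusted p = 0.0134). With 12 libraries the call of *Adamts1* was lost (adjusted p up to 0.0903) without control replicate 1 or 4 or any 1 iNICD replicate but replicate 5, and with control replicate 5 already left out it was kept whichever further library was removed (adjusted p up to 0.0396). None of 7 tested further ligands, receptors and co-receptors and none of 6 tip-cell genes, which mark the leading cell of a sprout, was called with 12 libraries or with 11. The co-receptor *Nrp1* had the lowest adjusted p among the former (0.191 with 12 libraries).

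**Figure D5:**
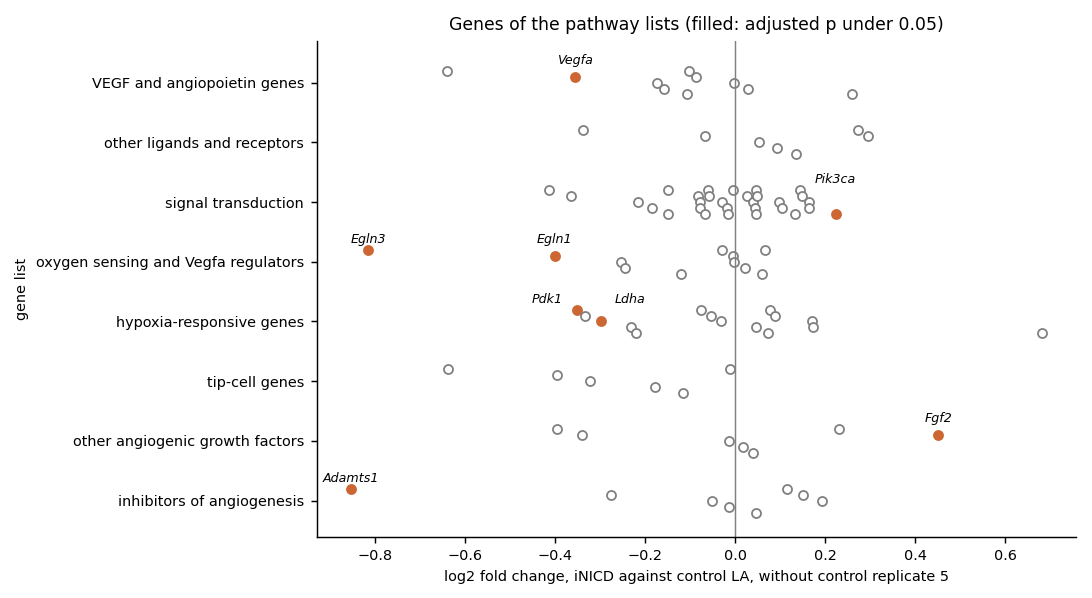
Log2 fold change of iNICD against control LA without control replicate 5 (x axis) for each tested gene of 8 lists (y axis); filled points, with names, have an edgeR adjusted p under 0.05. *Egln3*, *Egln1*, *Pdk1*, *Ldha*, *Vegfa* and *Adamts1* lie below 0, and *Pik3ca* and *Fgf2* above it.

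Within the groups, *Vegfa* and *Kdr* deviated from their group means together (Pearson r = 0.83, Spearman rho = 0.81 over 11 libraries, control replicate 5 left out). Control replicate 2 held the highest value of both among these controls, and without it and iNICD replicate 4 the r was 0.36 over 9 libraries, so the relation rested on those libraries. *Kdr* and *Tek*, both endothelial receptors, had r = 0.71 over 11 and 0.77 over 9 libraries. *Vegfc* and *Flt4* had r = 0.74 and 0.81. *Vegfb* and *Tek* went in opposite directions (r = -0.71 over 11 and -0.82 over 9). Deviations were taken within genotype and not within sex. The male minus female log2 difference with 11 libraries was 0.30 for *Vegfb* and -0.33 for *Tek* (edgeR adjusted p = 0.183 and 0.202). The part of sex in their relation was not tested. The genes whose deviations were most like those of *Vegfa* over the 11 libraries were *Mrpl19* (r = 0.98), *Xpnpep1* (0.96) and *Rbpms* (0.95), and none of these was itself called between the groups with 11 libraries (lowest edgeR adjusted p = 0.145). Those most like *Angpt1* were *Mzb1* (r = 0.94), *Casp6* (0.92) and *Bche* (0.91). *Mzb1* and *Bche* were called higher in iNICD libraries with 11 libraries, at log2 fold changes of 0.45 (edgeR adjusted p = 0.0442) and 0.42 (adjusted p = 0.0447), the opposite sign to the -0.64 of *Angpt1*, and neither with 12 (adjusted p = 0.188 and 0.131). With 1 further library left out in turn, the call of *Mzb1* was kept only without control replicate 6 or iNICD replicate 6 (adjusted p up to 0.11 otherwise) and that of *Bche* only without one of these or iNICD replicate 5 (up to 0.107). *Casp6* was not called (adjusted p = 0.911). Without control replicate 2 and iNICD replicate 4 the r of the genes like *Vegfa* was 0.89, 0.76 and 0.80, and without control replicate 2 and iNICD replicate 6 that of the genes like *Angpt1* was 0.93, 0.78 and 0.86, over 9 libraries each. The libraries share depth and tissue composition, and these correlations are descriptions.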

How the data were processed

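Total RNA was extracted from the LA of each mouse, ribosomal RNA was removed, and stranded single-end libraries were sequenced. The authors deposited 1 table of raw read counts per gene name, without normalization, for the 12 LA libraries, built on mm10. The submitters' processing notes name cutadapt, STAR 2.4.2a, Subread with featureCounts, and edgeR; the paper also describes a route by TopHat2 and HTSeq that removed mitochondrial reads, whereas the table holds 1963327 to 3048500 counts of mitochondrial genes per library. A gene length in bases, deposited beside the counts, was used only for levels per kb.

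Groups, replicate numbers and sex came from the sample titles and descriptions, which exchange the numbers of 2 controls; the titles were used. Nothing pools mice within a library. Genes above 1 CPM in 6 or more libraries were compared with edgeR 4.0.16 in R 4.3.3 (TMM, quasi-likelihood test, two-sided, Benjamini-Hochberg over all 13541 genes, threshold 0.05), on 12 libraries and on 11. Standard errors were derived from the F statistic. The scripts were tested on simulated data. Alternatives were DESeq2 1.42.0, edgeR's exact test, other scalings and filters, a sex term, the replicate block, each sex alone, each library left out, a 1.5-fold requirement and counts without mitochondrial genes. The comparison of the sexes and the pericyte sum without *Cspg4* were chosen after seeing the data, and control replicate 5 was singled out with its *Vegfa* and *Angpt1* values known. Single values were compared by exact permutation of libraries in Python 3.11.15.

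The 10 genes and all lists were chosen with earlier results of these data known. All 10 are named, with up to 5 called genes per pathway list and direction, up to 3 per marker list, and the 3 genes most like *Vegfa* and *Angpt1*. Positions are from GENCODE M21 on GRCm38, a later release than the authors used, and promoter windows from RefSeq on GRCm38.p6, cut to the 250 bases before each start. Depth was 21432632 to 27182038 counts per library; the scarcest member, *Pgf*, had as few as 74 counts in a library.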

Additional observations from a re-analysis of the deposited data

Results flagged for a closer look

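Dixon's ratio (the gap from an extreme library to its nearest neighbour over the whole range of the group) was computed for 54 groups of 6 libraries: the 10 members, the other called genes and the summed endothelial level, in each genotype. It passed its 95% critical value in 4 of them, and chance gives about 1 in 20, or 2.7 of 54. *Vegfa* in control replicate 5 was 388 normalized CPM, with the next control at 251 (ratio 0.764); this value was among those that had singled out the library, so its ratio restates a known value and adds no support. In the same library *Adamts1* was 263, with the next control at 119.7 (ratio 0.770), and the summed endothelial markers were 2147, with the next control at 1654 (ratio 0.708). *Kdr* in control replicate 2 was 169, with the next control at 136 (ratio 0.659). *Angpt1* in control replicate 5, at 16.4, did not pass. Its nearest neighbour, control replicate 2 at 88.5, kept the gap small beside a control range that reached 222.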

How the results depend on the processing

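With 12 libraries the count of members called was 0, and it became 1, *Vegfa* each time, with DESeq2, the exact test of edgeR, upper-quartile factors, library totals alone, a sex term and female libraries only; it was 0 to 1 when libraries were left out in turn (1 without control replicate 5 or 6). Over all 25 alternatives *Vegfa* stayed below 0, from -0.76 (male libraries only, adjusted p = 0.775) to -0.36. With 11 libraries the count was 1, and *Vegfa* passed under all 22 alternatives of edgeR and DESeq2 (adjusted p 1.3e-07 to 0.0248), but its decrease was under 1.5-fold, so a 1.5-fold requirement gave 0. The count was 1 to 2 when a further library was left out, *Angpt1* being the second without control replicate 2. Several members that were called nowhere changed sign around 0. With 12 libraries these were *Vegfb* (0.12) and *Vegfc* (0.052) in males only, *Pgf* with a sex term (-0.13) and in females only (-0.24), *Kdr* in males only (0.044), *Flt4* in females only (0.0021), and *Tek* in males only (-0.13). Leaving out 1 library gave -0.089 to 0.26 for *Pgf*, -0.087 to 0.012 for *Kdr*, -0.14 to 0.028 for *Flt4* and -0.052 to 0.086 for *Tek*. With 11 libraries *Pgf* with a sex term was -0.10 and *Tek* 0.082, and leaving out 1 more gave -0.020 to 0.074 for *Flt4* and -0.066 to 0.069 for *Tek*. Same-numbered libraries did not deviate together in every pair (correlations -0.15 to 0.37, 4 of 6 over 0.1), so the numbers were not taken to pair mice. With the replicate block *Tek* was -0.0068 (-0.0069 with the description numbers) and 0.035 with 11 libraries, *Vegfa* was -0.49 (adjusted p = 0.0662) with 12 libraries, and the counts of called genes were 0 for signal transduction, 2 for hypoxia-responsive genes and 0 for other growth factors. These counts were 2, 4 and 2 with DESeq2, and 2 for hypoxia-responsive genes without control replicate 5. With 11 libraries the block also ended the call of *Ldha* (adjusted p = 0.0555). Over all tested genes the block gave 332 higher and 136 lower genes, DESeq2 615 and 444, males only 8 and 0, beside 377 and 181; with 11 libraries DESeq2 gave 767 and 557 and the block 361 and 183, beside 495 and 304. The endothelial level as a mean of logs differed by -0.03 (permutation p = 0.807). The cause of these shifts was not tested. Control replicate 5 limits the comparison with 12 libraries, and only 1 other control was male.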
